A study of Mus musculus with 12 samples.

Results

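Klf2, S1pr1, Ccr7, Klf3 and Rasgrp2, a set of 5 genes tied to the recirculation of T cells through blood and lymph nodes, were followed in T cells of the pancreatic islets. They were taken by name, 5 of the 31053 genes in the count tables, and all 5 were tested in every comparison below. The choice was made with earlier results of these data known, so counts of members called describe them and are no independent support. In mice a naive T cell enters a lymph node by rolling on the adhesion protein CD62L and following the ligands of the chemokine receptor CCR7, and leaves by following sphingosine 1-phosphate through the receptor S1PR1. The zinc finger transcription factor KLF2 activates S1pr1, and activated T cells lower these genes together when they stop recirculating. KLF3 is a related factor that mostly represses transcription, and RASGRP2 (CalDAG-GEFI) is an exchange factor that switches on the small GTPase Rap1 and through it integrins.

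The cells came from islets of NOD mice, a strain that develops autoimmune diabetes on its own. All were females aged 12 weeks, labelled pre-diabetic, with no treatment or second genotype named, and 4 biological replicates were processed. Live cells stained for the T cell receptor were sorted from the islets. RNA, counts of the antibodies against CD4, CD8b, CD62L and CD11a, and receptor sequences were read from the same barcodes. Whether 1 mouse or several gave a replicate is not stated in the labels, so p-values measure the spread between these 4 samples.

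Cells were put into 3 populations by their own counts. CD8 cells (4225) had an antibody CD4 count under 20 and at least 2 UMIs of Cd8a and Cd8b1, and Treg cells (1195) had an antibody CD4 count of at least 40, no Cd8a or Cd8b1 UMI and at least 1 Foxp3 UMI. CD4 conventional cells (11031) met the same CD4 and CD8 limits with no Foxp3 UMI. Each population was split by the antibody CD62L count into classes of 0-1, 2-3, 4-9, 10-19 and 20 or more, and by clone size. A cell with a paired receptor belonged to an expanded clone when at least 2 cells of its library shared all productive receptor chains, and was called single otherwise; cells without a paired receptor were in neither class. Levels below are CPM (UMI counts scaled to the same total) of the summed UMIs of a class in a library, which needed at least 10 cells. In such sums, fewer cells with a transcript and less of it per cell cannot be told apart.

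Of 27423 barcodes, 16451 entered the populations, and the libraries held 26861163 to 37834174 RNA UMIs each. The 5 genes had 11345 (Rasgrp2) to 46602 (Klf2) UMIs in the cells used. Replicates 3 and 4 were shallower, with median depths of 2842 and 2610 UMIs per cell, against 3836 and 4221 in replicates 1 and 2. In replicates 3 and 4, 36.67% and 29.84% of cells had an antibody CD11a count under 20, against 4.12% and 5.17% in replicates 1 and 2. Pairs of libraries shared 9 to 31 barcodes among the cells used. Cd3e, a subunit of the T cell receptor complex, had 125535 UMIs in the cells used. Markers of other cells were low but present, with 37 Ms4a1, 150 Cd79a and 383 Cd79b UMIs of B cells, 34 Col1a1 UMIs of fibroblasts, 4052 Ins2 UMIs of beta cells, 2754 Ctrb1 UMIs of acinar cells and 9281 Lyz2 UMIs of myeloid cells. Ighm, with 14866 UMIs, and Pecam1 of the endothelial list, with 5586, stood above the rest of their lists.

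RefSeq promoter windows of GRCm38.p6 were at hand for 3 of the 5 genes and are shown because the transcripts changed together. Klf2 lies at chr8:72319062-72321654, Klf3 at chr5:64803521-64832901, Rasgrp2 at chr19:6398957-6415216, S1pr1 at chr3:115710433-115715055 and Ccr7 at chr11:99144199-99155077. The 250 bases before a start were searched on both strands for the MEF2 consensus, for CACCC, the core bound by KLF factors, and for GTAAACA, a form of the forkhead motif. Klf2 held a MEF2 match, in capitals below, 118 bases before its start; 2.9% of the 32851 windows hold one. Klf3 held 5 CACCC matches and the Rasgrp2 window shown 3 (capitals, either strand), the other Rasgrp2 window 1 and Klf2 1, and 52% of all windows hold at least 1. GTAAACA was in none of these 4 windows and in 3.2% of all windows. These matches are letters only and show no binding.
Klf2, chr8:72318812-72319061, plus strand: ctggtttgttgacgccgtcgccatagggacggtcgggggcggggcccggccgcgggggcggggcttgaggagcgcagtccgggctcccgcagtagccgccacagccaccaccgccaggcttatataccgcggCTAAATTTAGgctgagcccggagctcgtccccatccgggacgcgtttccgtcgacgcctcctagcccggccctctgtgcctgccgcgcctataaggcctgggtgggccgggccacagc
Klf3, chr5:64803271-64803520, plus strand: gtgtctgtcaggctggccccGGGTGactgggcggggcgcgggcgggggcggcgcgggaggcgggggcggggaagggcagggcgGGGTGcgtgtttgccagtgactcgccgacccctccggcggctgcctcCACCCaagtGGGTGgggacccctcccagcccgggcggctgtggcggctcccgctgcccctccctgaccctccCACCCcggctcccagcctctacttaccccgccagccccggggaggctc
Rasgrp2, chr19:6399625-6399874, plus strand: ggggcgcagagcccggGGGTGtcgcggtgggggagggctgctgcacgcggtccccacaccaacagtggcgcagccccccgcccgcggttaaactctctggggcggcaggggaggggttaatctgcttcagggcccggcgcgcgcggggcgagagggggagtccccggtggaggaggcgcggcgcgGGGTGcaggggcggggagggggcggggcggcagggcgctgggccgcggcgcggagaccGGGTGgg

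The first question was how each gene ran with CD62L protein on the same cells. All 5 were higher in CD62L 20 or more than in CD62L 0-1 in every library of CD8, Treg and CD4 conventional cells, and 14 of these 15 differences passed edgeR's quasi-likelihood test with Benjamini-Hochberg adjustment (adjusted p under 0.05, here a call). Ccr7 in Treg was the exception. The background was broad in CD8 cells, where 33.9% of tested genes were called in either direction, and in CD4 conventional cells, where 45% were. In Treg 5.47% were called.

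KLF2 controls exit and entry receptors. In CD8 cells Klf2 stood at 819.6, 1008, 608.4 and 912 CPM in CD62L 20 or more, against 328.8, 346.0, 266.6 and 296.0 CPM in CD62L 0-1 (replicates 1 to 4). The lowest high class was well above the highest low class, and the log2 fold change was 1.54 ± 0.09 (SE; adjusted p = 6.84e-06 by edgeR). Treg cells had 465.8, 775.9, 674.2 and 485.1 CPM against 229.5, 159.1, 155.9 and 253.4 CPM, a log2 fold change of 1.65 ± 0.23 (adjusted p = 0.00276 by edgeR; 0.144 with a TRB chain required). CD4 conventional cells had 942.6, 906.3, 777.9 and 1178 CPM, against 352.5, 423.3, 489.1 and 630.3 CPM. Their ranges did not overlap either, but the spread was wider and the log2 fold change of 1.16 ± 0.16 (adjusted p = 0.0108 by edgeR) lost its call without replicate 2 (adjusted p = 0.06).

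S1PR1 is the exit receptor. S1pr1 reached 246.7, 213.9, 271.2 and 228.7 CPM in CD62L 20 or more CD8 cells, against 117.3, 99.93, 77.84 and 63.19 CPM in CD62L 0-1 CD8 cells. In Treg it was at 170.1, 165.5, 223.8 and 123.7 CPM, against 71.17, 102.6, 116 and 100.1 CPM. CD4 conventional cells had 336.7, 313, 370.3 and 305.7 CPM, against 135.8, 166.2, 196.2 and 154.7 CPM. No range overlapped, although the lowest high Treg class was just above the highest low one. The log2 fold changes were 1.59 ± 0.15 in CD8 (adjusted p = 0.000119), 0.88 ± 0.17 in Treg (adjusted p = 0.00148) and 1.17 ± 0.07 in CD4 conventional cells (adjusted p = 4.41e-09), all by edgeR.

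CCR7 guides cells into the lymph node T zone. Ccr7 stood at 379.3, 327.9, 291.9 and 341.7 CPM in CD62L 20 or more CD8 cells, against 170.1, 126.1, 49.84 and 58.39 CPM in CD62L 0-1. In its low class replicates 1 and 2 stood above replicates 3 and 4, and the log2 fold change of 2.02 ± 0.32 had the widest error of the 5 (adjusted p = 0.00868 by edgeR). Among CD4 conventional cells Ccr7 had 405.1, 368, 369.3 and 342.8 CPM, against 157.5, 139.3, 107.6 and 122.4 CPM, with a log2 fold change of 1.64 ± 0.06 (adjusted p = 3.39e-12 by edgeR). Treg cells had 241.6, 98.28, 150.1 and 285.4 CPM, against 105.5, 77.51, 79.77 and 45.78 CPM. The Treg ranges overlapped and the log2 fold change of 1.43 ± 0.37 was not called (adjusted p = 0.111 by edgeR), though 10 of 16 other settings called it, among them the fits without cycling cells at 2.06 (adjusted p = 3.53e-06) and without replicate 4 at 0.95 (adjusted p = 0.000692).

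KLF3, the repressor of the set, showed a similar order. In CD8 cells Klf3 had 188, 161.3, 211.9 and 179.2 CPM in CD62L 20 or more, against 91.4, 99.93, 75.1 and 61.17 CPM in CD62L 0-1 (log2 fold change 1.33 ± 0.14, adjusted p = 0.000123 by edgeR). Treg cells had 102.4, 129.3, 199.2 and 102.3 CPM, against 38.04, 53.04, 79.77 and 57.49 CPM (1.29 ± 0.19, adjusted p = 6.94e-05). CD4 conventional cells had 217.8, 202.9, 195.8 and 196.3 CPM, against 109.1, 116.9, 157.2 and 136.7 CPM (0.79 ± 0.13, adjusted p = 0.00428), the smallest of the 5 changes in that population. All Klf3 ranges were apart.

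RASGRP2, the Rap1 activator, was the one gene of the 5 with a called difference in its CD62L relation between CD8 and CD4 conventional cells. In CD8 cells Rasgrp2 was at 197.4, 178.9, 170.6 and 182.8 CPM in CD62L 20 or more, against 129.9, 120.9, 147.8 and 139.8 CPM in CD62L 0-1, a log2 fold change of 0.56 ± 0.10 (adjusted p = 0.0014 by edgeR). In Treg it was at 119.8, 124.1, 103.7 and 66.59 CPM, against 33.13, 43.71, 39.89 and 41.52 CPM (1.44 ± 0.22, adjusted p = 0.000119). CD4 conventional cells had 211.4, 201.4, 186.8 and 208.8 CPM, against 69.84, 96.43, 96.96 and 112.8 CPM (1.25 ± 0.13, adjusted p = 0.000687). The high classes of CD8 and CD4 conventional cells lay close together, and it was the low CD8 class that stood higher than the low CD4 class. The difference between the CD8 and CD4 conventional effects was itself called at -0.68 ± 0.15 (adjusted p = 0.0169 by edgeR), among 3.52% of tested genes. It was -0.16 without cycling cells (adjusted p = 0.654), -0.36 with cells thinned to 1000 UMIs (adjusted p = 0.471) and -0.50 with 1 cell per clonotype (adjusted p = 0.128), and was lost without replicate 2, 3 or 4 (adjusted p = 0.0657, 0.106 and 0.0986).

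The other 4 differences between the CD8 and CD4 conventional effects were positive but not called, from 0.29 ± 0.35 for Ccr7 to 0.53 ± 0.21 for Klf3. None of the 5 differences between the Treg and CD4 conventional effects was called, against 3.65% of tested genes, and they ran between -0.32 ± 0.16 for S1pr1 and 0.47 ± 0.24 for Klf3. In that comparison Klf2 (0.46) was called in 2 of 16 other settings, at 0.89 with thinned cells (adjusted p = 0.0016) and 0.43 without a filter on low counts (adjusted p = 0.0292). It was 1.08 without cycling cells (adjusted p = 0.0672), where Rasgrp2 was called at 1.01 (adjusted p = 0.035).

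**Figure D1:**
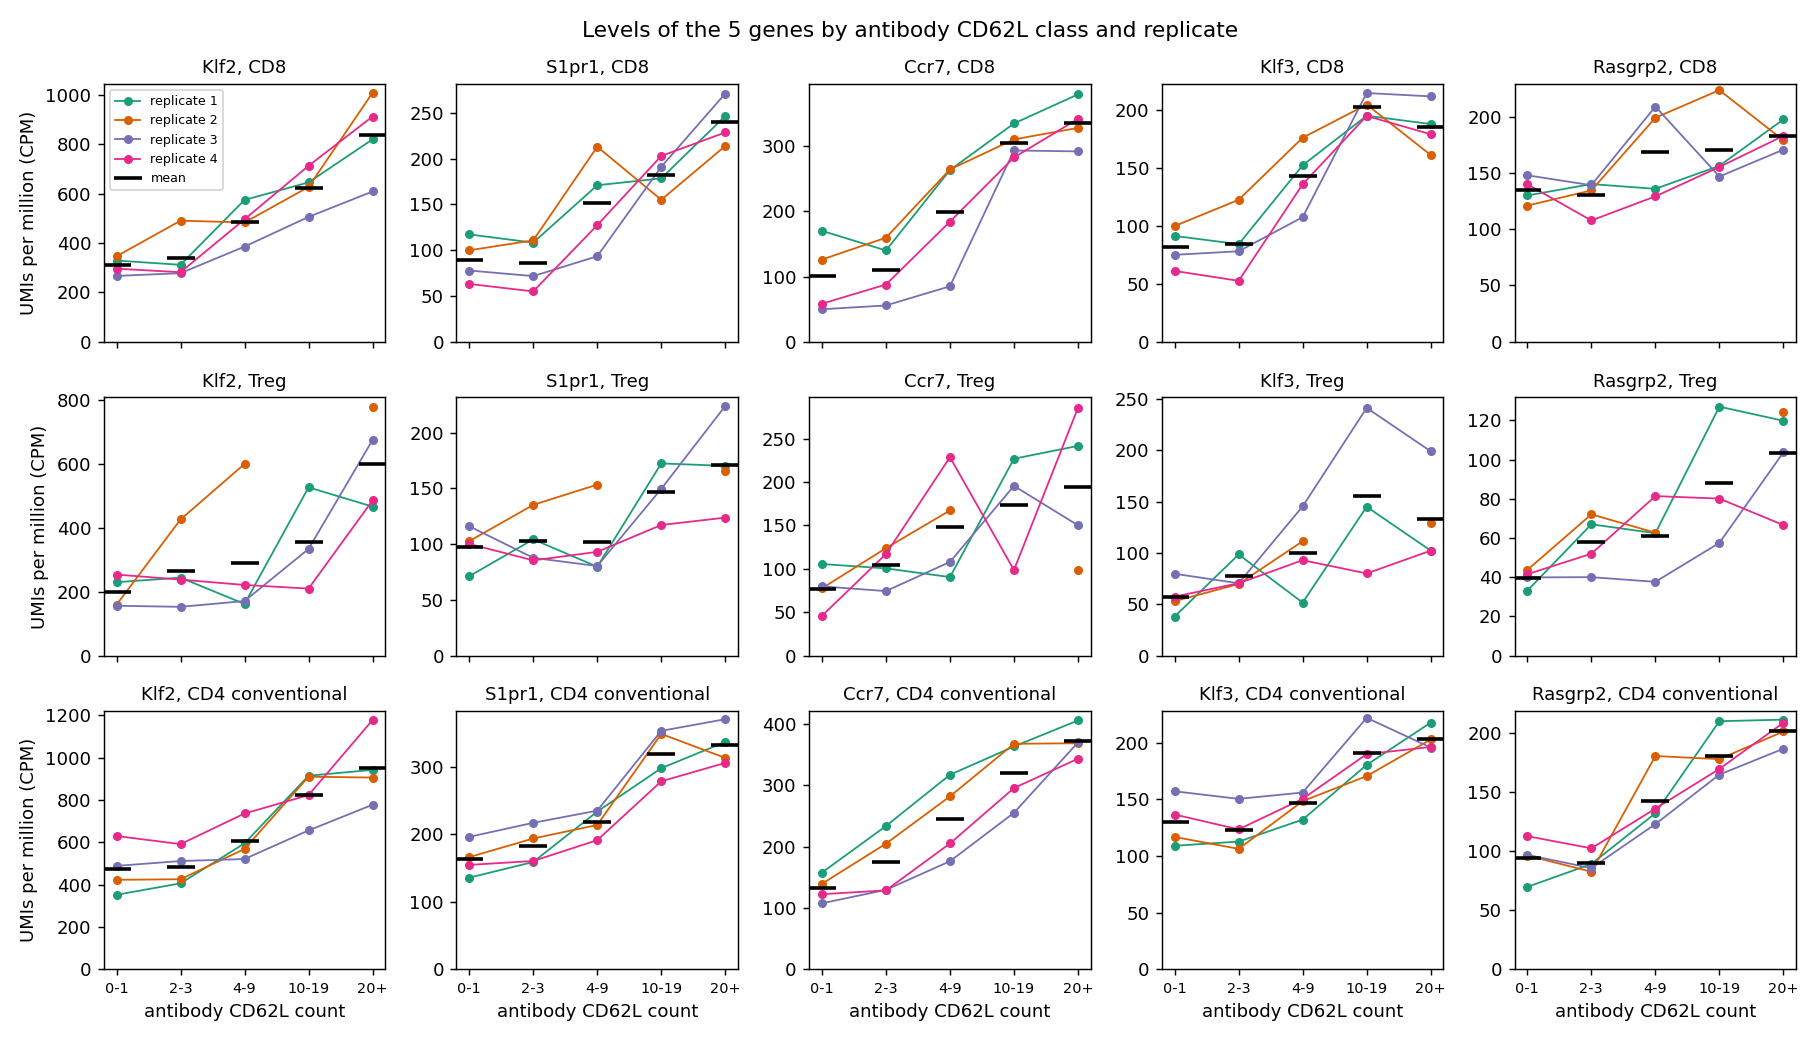
Level of each gene in CPM (vertical axis, from 0) by antibody CD62L class (horizontal axis) in CD8, Treg and CD4 conventional cells; coloured lines are the 4 replicates and black bars the mean. In CD8 and CD4 conventional cells most levels changed little between classes 0-1 and 2-3 and were higher from class 4-9 on, while Rasgrp2 in CD8 cells stayed within 107.7 to 223.4 CPM in every class.

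The classes between the ends showed where along CD62L the genes changed. In CD4 conventional cells the mean S1pr1 level was 163 CPM at CD62L 0-1, 183 at 2-3, 218 at 4-9, 320 at 10-19 and 331 at 20 or more. Mean Ccr7 ran 132, 174, 245, 320 and 371 CPM over the same classes, and mean Klf2 474, 484, 606, 826 and 951 CPM. Klf2 was level over the 2 lowest classes, and S1pr1 over the 2 highest. In CD8 cells mean Klf3 was 81.9, 84.4, 143, 202 and 185 CPM, and mean Klf2 309, 340, 485, 623 and 837 CPM. Klf3 thus stopped at CD62L 10-19 in CD8 cells, while mean Klf2 was higher in every next class.

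Neighbouring classes were tested in 1 fit per population. Of 60 member steps (5 genes, 4 steps and 3 populations) 8 were called, all towards the higher class, and 53 had a positive log2 fold change. For CD4 conventional cells the step from 2-3 to 4-9 was called for Rasgrp2 (0.67), Ccr7 (0.54) and S1pr1 (0.32), among 1.91% of tested genes. The next step, 10-19 over 4-9, was called for S1pr1 (0.58), Klf3 (0.45) and Ccr7 (0.45), among 7.43% of tested genes. In CD8 cells 4-9 over 2-3 was called for Klf3 (0.83) and Klf2 (0.60), among 0.368% of tested genes, and no member in 10-19 over 4-9, where 0.184% were.

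No member was called in 2-3 over 0-1 in any population, where edgeR called 0% of tested genes in each. DESeq2 called 0, 2 and 0 genes there in CD8, Treg and CD4 conventional cells, and 151, 138 and 339 genes had an unadjusted p under 0.05 by edgeR. The members' log2 fold changes at that step ran from -0.04 to 0.18 in CD8, from 0.09 to 0.55 in Treg and from -0.06 to 0.39 in CD4 conventional cells. At 20 or more over 10-19 no member was called either, where edgeR called 0% of genes in CD8 cells, 0% in Treg and 0.241% in CD4 conventional cells. There DESeq2 called 0 genes in CD8 cells and 54 in Treg, and 548 and 560 genes had an unadjusted p under 0.05. In Treg the 2 middle steps called 0% (4-9 over 2-3) and 0.0265% (10-19 over 4-9) of genes and no member, with 301 genes at an unadjusted p under 0.05 and 2 by DESeq2 for 4-9 over 2-3. Treg classes were small, at 6 to 18 cells per library in 10-19, where replicate 2 fell under 10 cells and was left out.

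A slope of log2(CPM + 1) on the class number, fitted in each library, gave 1 value per gene and library. All 60 slopes were positive. In CD8 cells they averaged 0.373 ± 0.0592 per class for Klf2, 0.401 ± 0.147 for S1pr1, 0.535 ± 0.202 for Ccr7, 0.368 ± 0.126 for Klf3 and 0.12 ± 0.056 for Rasgrp2 (SD, n = 4). Among CD4 conventional cells the shallowest slope was that of Klf3 at 0.194 ± 0.0648 and the steepest that of Ccr7 at 0.391 ± 0.052. In Treg the slopes lay between 0.213 ± 0.098 for S1pr1 and 0.384 ± 0.175 for Klf2. With 4 libraries the exact two-sided permutation test cannot go below p = 0.13, which each slope reached.

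Other measures moved with the CD62L classes. Of CD8 cells 7.98 to 11.63% counted as cycling (at least 2 UMIs over 6 cell cycle genes) in CD62L 20 or more, against 22.63 to 40.82% in CD62L 0-1. In Treg the shares were 16.07 to 23.33% against 25 to 32.04%, and in CD4 conventional cells 3.81 to 7.05% against 11.41 to 17.39%. Among CD8 cells with a paired receptor, 4.55 to 9.95% were in expanded clones in CD62L 20 or more, against 51.12 to 80.36% in CD62L 0-1, and among CD4 conventional cells 2.82 to 6.8% against 45.43 to 53.2%. Without cycling cells all 15 differences were called, with log2 fold changes of 0.66 (Klf3) to 1.25 (Ccr7) in CD8, 1.24 (Klf3) to 2.06 (Ccr7 and Rasgrp2) in Treg and 0.43 (Klf3) to 1.42 (Ccr7) in CD4 conventional cells.

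Myeloid transcripts (Lyz2, Cd68, Csf1r, C1qa, Itgax) summed to 149.7 to 315.6 CPM in CD62L 20 or more CD4 conventional cells, against 40.73 to 132.3 CPM in CD62L 0-1, and 4 of these 5 genes were called higher. Without barcodes holding at least 2 UMIs over Lyz2, Cd68, Csf1r and C1qa, all 5 recirculation genes were still called in CD8 and CD4 conventional cells. Their log2 fold changes were 0.60 (Rasgrp2) to 2.04 (Ccr7) in CD8 and 0.80 (Klf3) to 1.65 (Ccr7) in CD4 conventional cells. In Treg all 5 were then called, among them Ccr7 (1.52, adjusted p = 0.04 by edgeR), which was not called with these barcodes kept. Treg held 38.05 to 1048 CPM of myeloid transcripts in CD62L 20 or more, against 8.517 to 23.31 CPM in CD62L 0-1. Of genes induced by tissue dissociation, 4 of 12 were called higher in CD62L 20 or more CD8 cells, and in CD4 conventional cells 5 of 13 higher and 1 lower, shares close to the background in both. In Treg 3 of 12 were called higher, Dnajb1 (0.90), Ier2 (0.80) and Jun (0.50), where 5.47% of tested genes were called. In CD8 cells Ighm (1.52) and Cd79b (1.11) were higher too, and Tcrg-C4 (-3.86) was lower. Their part in the results was not tested.

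**Figure D2:**
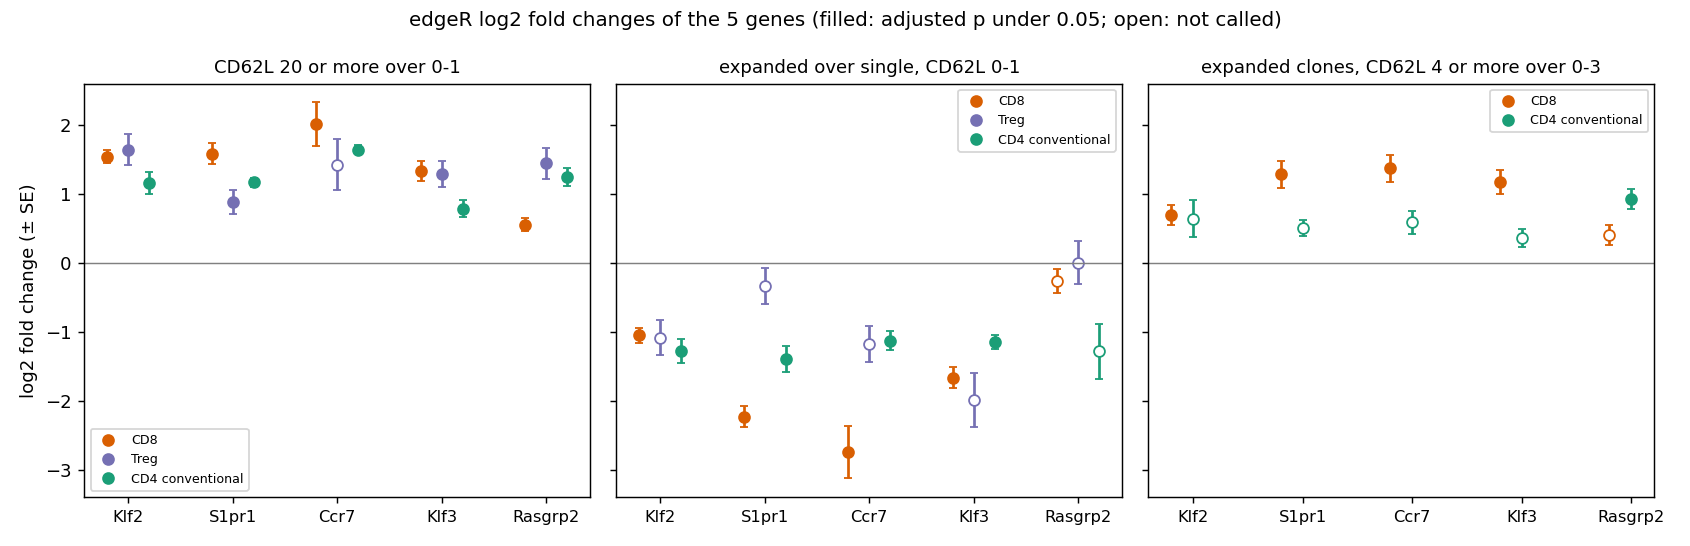
Log2 fold changes with standard errors (vertical axis) of the 5 genes in CD62L 20 or more over 0-1, in expanded over single cells at CD62L 0-1, and in expanded clones with CD62L 4 or more over 0-3; filled points have an adjusted p under 0.05. The left and right panels hold positive values only, and the middle panel is negative for all 5 genes in CD8 and CD4 conventional cells.

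At a matched CD62L class the populations differed, most of all Treg from CD4 conventional cells. All 5 genes were called lower in Treg at CD62L 0-1, where 24.6% of tested genes were called, and at CD62L 20 or more, where 16.8% were. At CD62L 0-1 the log2 fold changes of Treg over CD4 conventional cells were -1.28 ± 0.17 for Klf2, -1.27 ± 0.12 for Rasgrp2, -1.25 ± 0.11 for Klf3, -0.86 ± 0.12 for Ccr7 and -0.78 ± 0.09 for S1pr1. Each of the 5 was lower in Treg in every library, as with Klf3 at 38.04 to 79.77 CPM against 109.1 to 157.2 CPM. At CD62L 20 or more they were -1.10 ± 0.16 for Rasgrp2, -1.08 ± 0.14 for S1pr1, -1.02 ± 0.22 for Ccr7, -0.79 ± 0.16 for Klf2 and -0.75 ± 0.16 for Klf3. Without cycling cells, Klf2 and Klf3 at CD62L 20 or more were at -0.09 (adjusted p = 0.82) and -0.20 (adjusted p = 0.59), and only Rasgrp2 of the 5 was called there with cells thinned to 1000 UMIs. With a TRB chain required, Klf2 was not called at CD62L 0-1 (adjusted p = 0.0673), nor Klf2 and Klf3 at CD62L 20 or more (adjusted p = 0.152 and 0.108). Cycling shares were higher in Treg than in CD4 conventional cells, as given above. Treg were also deeper at CD62L 0-1, with medians of 3741.5 to 5903 UMIs against 3047.5 to 4038. At CD62L 20 or more Klf2 UMIs numbered 241, 150, 247 and 204 in 59, 30, 56 and 60 Treg cells. CD4 conventional cells, 1228, 315, 865 and 803 of them, held 4549, 1251, 2861 and 3210. A lower CPM in Treg is thus a lower share of UMIs and need not mean fewer UMIs per cell.

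CD8 and CD4 conventional cells lay closer. At CD62L 20 or more only S1pr1 was called, at -0.45 ± 0.07 (adjusted p = 3.24e-06 by edgeR, 15.4% of tested genes called), with 213.9 to 271.2 CPM in CD8 cells against 305.7 to 370.3 CPM in CD4 conventional cells. This held in all 16 other settings, with log2 fold changes of -0.48 to -0.34. The other 4 genes were between -0.19 ± 0.07 (Klf2) and -0.11 ± 0.08 (Klf3). By a normal quantile, which is narrow for 4 libraries, the 95% intervals were -0.33 to -0.05 for Klf2, -0.27 to -0.01 for Ccr7, -0.27 to 0.01 for Rasgrp2 and -0.26 to 0.04 for Klf3. Klf2 was called in 6 of 16 other settings, among them without replicate 2 (-0.29, adjusted p = 0.000127). At CD62L 0-1, where 34.9% of tested genes were called, S1pr1 (-0.88 ± 0.21, adjusted p = 0.0294) and Klf3 (-0.66 ± 0.20, adjusted p = 0.0485) were lower and Rasgrp2 (0.54 ± 0.10, adjusted p = 0.00199) higher in CD8 cells. Rasgrp2 was at 0.0031 without cycling cells (adjusted p = 0.993) and Klf3 was called in 8 of 16 other settings, not without replicate 3 or 4 (adjusted p = 0.0894 and 0.12). S1pr1 was called in 13 of 16, not without replicate 2 or 4 (adjusted p = 0.0943 and 0.111). Klf2 (-0.57, adjusted p = 0.0775) was called in 4 of 16, among them without replicate 1 (-0.73, adjusted p = 0.0124).

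The next question was whether the genes tracked clonal expansion among cells with an antibody CD62L count of 0-1. Within CD62L 0-1, 4 of the 5 genes were called lower in expanded than in single cells of both CD8 (24.6% of tested genes called) and CD4 conventional cells (24.1% called), and Rasgrp2 in neither. In CD8 cells S1pr1 had 56.28, 42.46, 41.82 and 40.5 CPM in expanded clones, against 193.8, 166.4, 257.3 and 168.6 CPM in single cells. The expanded values sat in a narrow band far under the single ones, with a log2 fold change of -2.23 ± 0.15 (adjusted p = 4.01e-09 by edgeR). Ccr7 had 73.59, 63.4, 17.19 and 21.15 CPM against 293.3, 246.4, 208 and 232.7 CPM, again split between replicates 1 and 2 and replicates 3 and 4 in the expanded cells (-2.74 ± 0.38, adjusted p = 0.0107). It was -2.49 with adjusted p = 0.08 without cycling cells. Klf3 had 42.21, 66.98, 46.47 and 39.07 CPM against 113.8, 151.4, 162.1 and 142.5 CPM (-1.67 ± 0.15, adjusted p = 1.59e-07). Klf2 was less reduced in CPM, at 222.9, 260.2, 211.9 and 242.3 CPM against 437.3, 411.5, 518.2 and 432.1 CPM (-1.05 ± 0.11, adjusted p = 6.7e-07). Its UMIs numbered 206, 435, 456 and 676 in 91, 164, 180 and 238 expanded cells. Single cells, 87, 127, 44 and 79 of them, held 246, 329, 147 and 182. Expanded CD8 cells were deeper, with medians of 5778.5 to 7574 UMIs at CD62L 0-3, against 3868 to 5059 in single cells. A lower CPM is thus a lower share of UMIs and need not mean fewer UMIs per cell.

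Rasgrp2 in CD8 cells did not follow the others: it had 134.2, 102.9, 141.7 and 152.7 CPM in expanded clones, against 131.6, 133.8, 222.1 and 106.8 CPM in single cells. The ranges overlapped and 2 of 4 libraries went each way, with a log2 fold change of -0.26 and a 95% interval of -0.59 to 0.07 (adjusted p = 0.305 by edgeR). Without cycling cells it was -0.87 (adjusted p = 0.00098), and with 1 cell per clonotype 0.13.

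In CD4 conventional cells all 5 were lower in expanded clones in every library. Klf2 had 232.6, 180.7, 289.9 and 386.5 CPM in expanded clones, against 497, 614.6, 555 and 760.2 CPM in single cells (log2 fold change -1.27 ± 0.17, adjusted p = 0.00794 by edgeR; -0.75 with adjusted p = 0.24 with 1 cell per clonotype). S1pr1 had 75.64, 75.76, 93.28 and 111.1 CPM against 195.6, 251.6, 260.6 and 181.1 CPM (-1.39 ± 0.19, adjusted p = 0.00434). The ranges of both were apart, as were those of Ccr7, Klf3 and Rasgrp2 below. Ccr7 had 96.68, 91.54, 62.4 and 98.15 CPM against 240, 186.7, 166.5 and 141 CPM (-1.12 ± 0.14, adjusted p = 0.00065), and Klf3 67.68, 67.08, 107.8 and 90.07 CPM against 173.4, 159.7, 188.2 and 169.2 CPM (-1.15 ± 0.11, adjusted p = 2.08e-06). Rasgrp2 had 35.83, 35.51, 69.96 and 91.28 CPM against 113.9, 158.7, 114.2 and 128.5 CPM. Its ranges did not overlap, but replicates 1 and 2 differed far more than replicates 3 and 4, and -1.28 ± 0.40 was not called (adjusted p = 0.13; called in 3 of 16 other settings).

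Treg gave 3 libraries with enough expanded cells (replicates 1, 2 and 4), and edgeR called 0.0151% of tested genes and no member. The log2 fold changes were -1.98 ± 0.39 for Klf3, -1.18 ± 0.27 for Ccr7, -1.08 ± 0.26 for Klf2, -0.33 ± 0.26 for S1pr1 and 0.01 ± 0.31 for Rasgrp2. For these Treg cells 341 genes had an unadjusted p under 0.05 and DESeq2 called 3. Without replicate 4 Klf3 (-2.13, adjusted p = 0.000621), Klf2 (-1.36, adjusted p = 0.000192) and Ccr7 (-1.16, adjusted p = 0.0104) were called, and without replicate 1 Klf3 (-2.38, adjusted p = 0.0358). Without cycling cells Klf3 (-2.33), Ccr7 (-1.27) and S1pr1 (-1.25) were called. Over all other settings Klf3 was called in 5 of 15, Klf2 in 4 of 16, Ccr7 in 3 of 15 and S1pr1 in 1 of 15.

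Cycling transcripts moved with expansion, at 1670 to 2301 CPM in expanded CD8 cells against 597.4 to 1054 CPM in single CD8 cells, and 880.5 to 1219 against 377.3 to 783.4 CPM in CD4 conventional cells. Without cycling cells S1pr1, Klf3 and Klf2 were still called in both populations. In CD8 cells B cell markers summed to 25.45 to 68.18 CPM in expanded clones against 102.2 to 162.6 CPM in single cells, and endothelial markers to 13.62 to 23.81 against 58.67 to 71.3 CPM. NK cell markers summed to 174.2 to 339.2 against 62.54 to 186.8 CPM and gamma delta T cell markers to 54.84 to 166.7 against 10.57 to 59.36 CPM. In the cells used Pecam1 had 5586 UMIs, against 7 to 146 for the other genes of the endothelial list. Eomes had 6547, against 6 and 68 for the other genes of the NK list. The endothelial and NK sums thus mainly followed Pecam1 and Eomes. From each of these lists 1 gene was tested, and Ighm (-1.79) and Pecam1 (-2.10) were called lower and Eomes (1.25) and Tcrg-C4 (1.97) higher. In CD4 conventional cells Ighm (-0.38) and Pecam1 (-0.83) were called lower and Eomes (1.02) and the myeloid Cd68 higher. Their part in the expansion results was not tested.

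**Figure D3:**
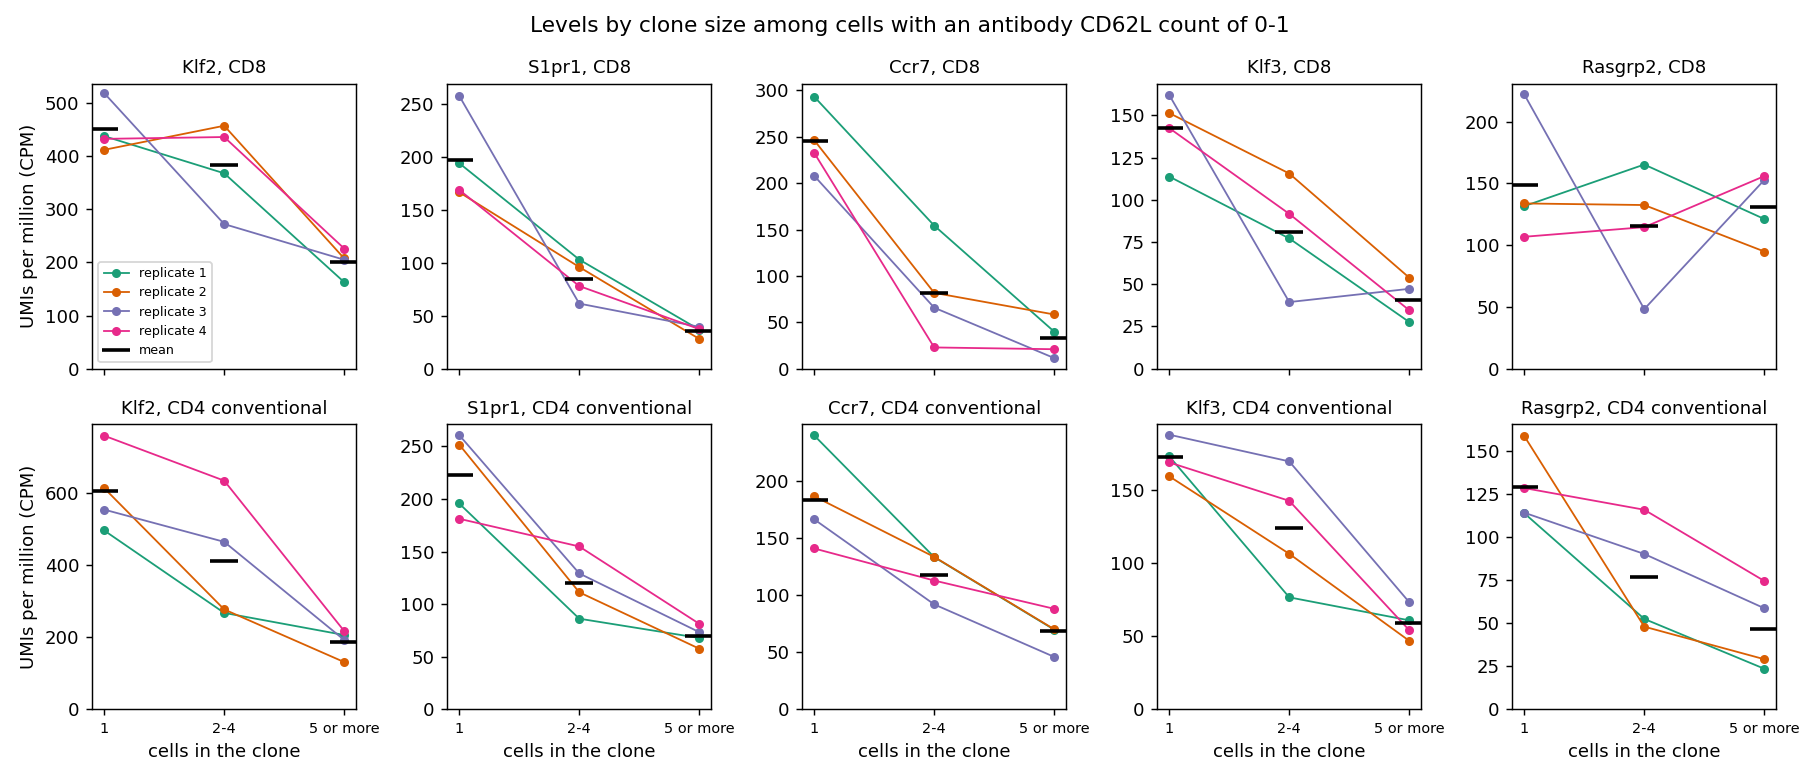
Level of each gene in CPM (vertical axis, from 0) in cells with an antibody CD62L count of 0-1 by the number of cells in the clone (horizontal axis), in CD8 and CD4 conventional cells; lines are replicates and black bars means. S1pr1 and Ccr7 were lower at each next size in all 4 replicates of both populations, and Rasgrp2 in CD8 cells was not.

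Splitting expanded clones by size gave the same order in finer steps. Among CD4 conventional cells each of the 5 genes was lower in clones of 2-4 cells than in single cells and lower again in clones of 5 or more, in all 20 pairs of gene and library. Mean Klf2 was 607 CPM in single cells, 412 in clones of 2-4 and 187 in clones of 5 or more, and mean Rasgrp2 was 129, 76.7 and 46.5 CPM. In CD8 cells 14 of 20 pairs showed both steps, with S1pr1 at 197, 84.5 and 35.4 CPM and Ccr7 at 245, 81.2 and 32.7 CPM on average. CD8 Klf2 dropped mainly in large clones, at 450, 383 and 200 CPM. Rasgrp2 was level in CD8 cells at 149, 115 and 131 CPM, where 1 of 4 libraries showed both steps. Few clones made up the largest class (6 to 18 clonotypes per library in CD8 cells, with up to 60 cells of 1 clone), and these are levels without a test. In Treg 10 of 15 pairs showed both steps, and the 11 Treg cells of large clones in replicate 4 held 0 UMIs of every member, a count that allows up to 3.

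The last question was whether the relation to CD62L held among cells of expanded clones. Cells of all expanded clones of a library were pooled and split into CD62L 4 or more and CD62L 0-3, so clones could differ between the sides. Few genes were called in this comparison: 0.223% in CD8 and 0.147% in CD4 conventional cells. In CD8 cells 4 of the 5 genes were among those called. S1pr1 had 102.2, 182.6, 71.04 and 102.6 CPM in CD62L 4 or more, against 45.73, 42.43, 41.3 and 36.39 CPM in CD62L 0-3 (log2 fold change 1.29 ± 0.20, adjusted p = 0.000714 by edgeR). Ccr7 had 178.9, 219.1, 36.21 and 48.29 CPM against 61.56, 60.61, 18.27 and 25.53 CPM (1.37 ± 0.20, adjusted p = 0.000506). It was higher in every library, although the ranges overlapped since replicates 3 and 4 were low on both sides. Klf3 had 76.67, 137, 107.2 and 105.6 CPM against 34.59, 70.71, 51.32 and 39.38 CPM (1.18 ± 0.17, adjusted p = 0.000625). Klf2 had 419.1, 237.4, 403.9 and 383.3 CPM against 228.1, 272.7, 216.5 and 235.2 CPM, was lower in replicate 2 and had the smallest called change, 0.70 ± 0.14 (adjusted p = 0.0256).

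These CD8 calls were lost under several other settings. The CD62L 4 or more side held 59, 15, 110 and 34 cells, against 142, 194, 322 and 323 cells, and 1 clone gave 36 of the 110 cells in replicate 3. Without the replicate block none of the 4 was called (adjusted p = 0.159 to 1), and with 1 cell per clonotype the log2 fold changes were 0.26 to 0.78, none called. With cells thinned to 1000 UMIs none was called either (adjusted p = 0.115 to 0.514), and with clones of at least 3 cells only Ccr7 was (S1pr1 0.0584, Klf3 0.0588, Klf2 0.142). Klf2 was also not called without replicate 1, 3 or 4 (adjusted p = 0.203, 0.24 and 0.396), without cycling cells (0.13) or by DESeq2 (0.29), and Ccr7 not without cycling cells (1.26, adjusted p = 0.221). Rasgrp2 (0.41, adjusted p = 0.602) was called at 0.79 with CD62L 10 or more over 0-3 (adjusted p = 0.0437). S1pr1 and Klf3 were called without each replicate in turn and without cycling cells. Cycling transcripts overlapped between the sides, at 693.9 to 2300 CPM in CD62L 4 or more and 1634 to 2299 CPM in CD62L 0-3. B cell markers summed to 39 to 171.2 CPM against 29.29 to 66.16 CPM, and Ighm, the one of 6 that was tested, was called higher (1.36, adjusted p = 0.0168 by edgeR). Its part in the result was not tested.

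In CD4 conventional cells of expanded clones all 5 genes were higher on the CD62L 4 or more side in every library, and Rasgrp2 alone was called. It had 70.03, 79.92, 98.6 and 148.7 CPM in CD62L 4 or more, against 34.72, 34.23, 63.89 and 80.72 CPM in CD62L 0-3 (0.93 ± 0.14, adjusted p = 0.012 by edgeR). The order between replicates was alike on both sides, and the ranges overlapped. The call was lost without replicate 1 or 4 (adjusted p = 0.109 and 0.0955), without the replicate block (0.674), without cycling cells (0.709), with thinned cells (0.649), with 1 cell per clonotype (0.414) and with clones of at least 3 cells (0.469). S1pr1 (0.50 ± 0.11, adjusted p = 0.0898), Klf2 (0.64 ± 0.27), Ccr7 (0.59 ± 0.16) and Klf3 (0.37 ± 0.13) were not called. With CD62L 10 or more over 0-3 all 4 were, at 1.23 for S1pr1 (adjusted p = 1.4e-05), 1.46 for Klf2 (1.49e-08), 1.04 for Ccr7 (0.00119) and 1.23 for Klf3 (3.68e-05). Without a filter on low counts S1pr1 and Ccr7 were called, without cycling cells Ccr7 (0.79), and with thinned cells Klf2 (0.76). Myeloid transcripts ran from 9.115 to 2824 CPM on the CD62L 4 or more side, against 60.39 to 119.2 CPM; without such barcodes Rasgrp2 was at 1.07 (adjusted p = 0.00104) and S1pr1 was called at 0.57 (adjusted p = 0.0356).

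**Figure D4:**
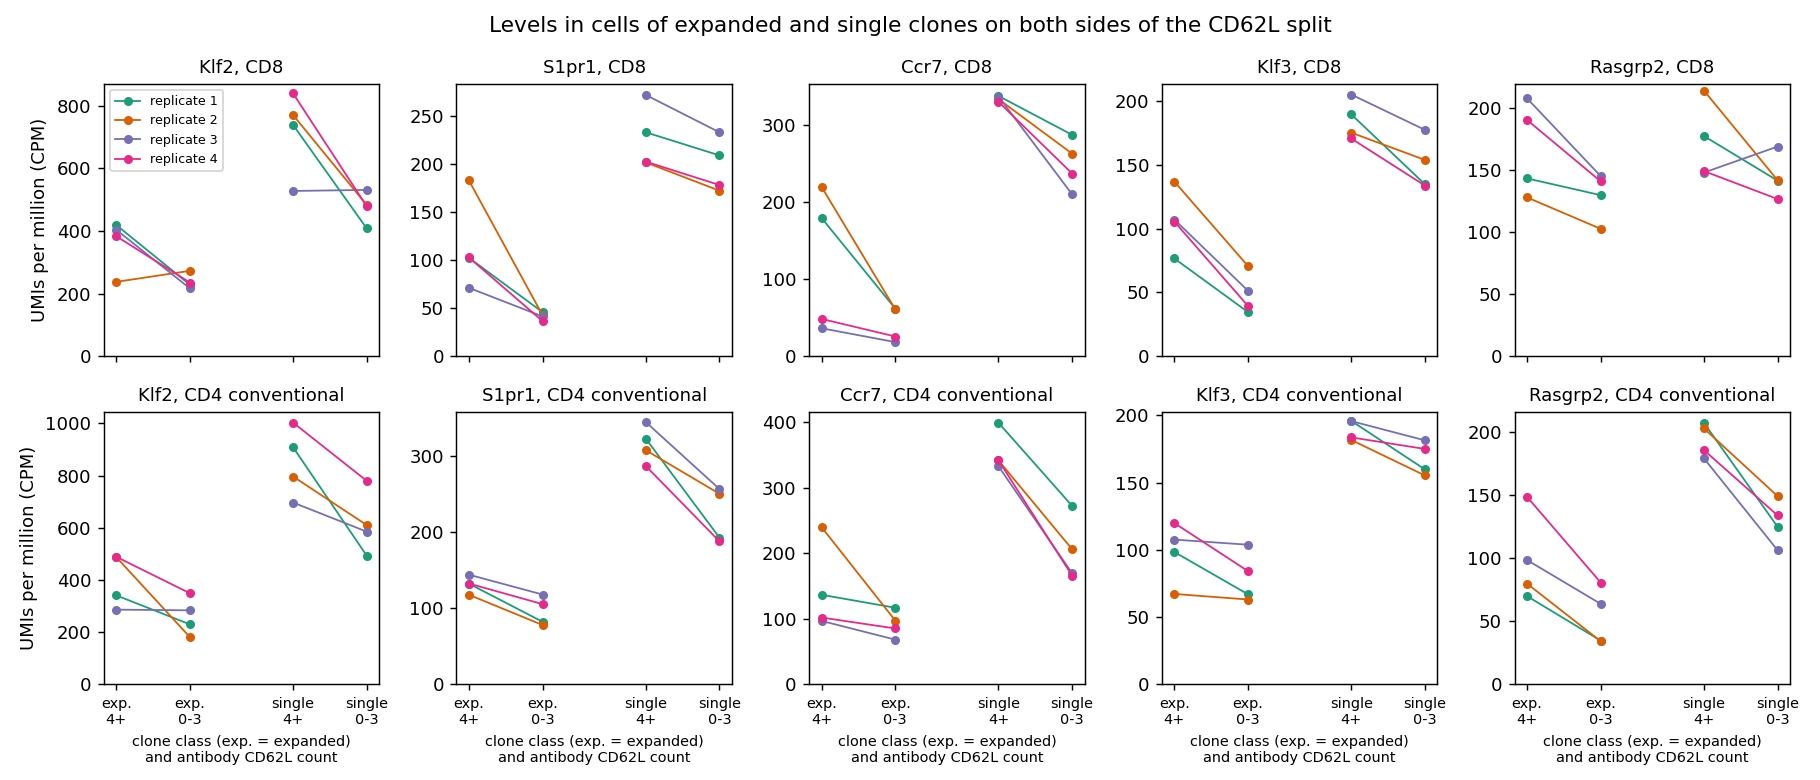
Level of each gene in CPM (vertical axis, from 0) in cells of expanded clones with antibody CD62L 4 or more and 0-3 and in single cells with 4 or more and 0-3 (horizontal axis), in CD8 and CD4 conventional cells; lines join a replicate's 2 classes. Cells of expanded clones with CD62L 4 or more stayed under single cells with CD62L 0-3 for S1pr1 in CD4 conventional cells, at 117.8 to 144.2 against 188 to 256.7 CPM.

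Single cells on both sides of the same split gave the comparison for these values. S1pr1 averaged 227 ± 33.1 CPM in single CD8 cells with CD62L 4 or more and 198 ± 28.3 CPM with CD62L 0-3, and 316 ± 24.4 against 222 ± 36.6 CPM in CD4 conventional cells. Klf2 averaged 719 ± 134 against 475 ± 50.7 CPM in CD8 and 851 ± 133 against 617 ± 120 CPM in CD4 conventional cells. The CD62L effect in expanded clones minus that in single cells was called for no member in CD8 cells (0.0439% of tested genes called) or CD4 conventional cells (1.81% called). The nearest was CD8 S1pr1 at 0.94 ± 0.24 (adjusted p = 0.244 by edgeR), called in 4 of 17 other settings, at 1.57 without cycling cells (adjusted p = 0.0062), 1.52 with CD62L 10 or more (adjusted p = 0.00151) and 1.25 without replicate 3 (adjusted p = 0.0337). With CD62L 10 or more Klf3 was called too, at 1.32 in CD8 (adjusted p = 0.023) and 0.90 in CD4 conventional cells (adjusted p = 0.0176), and CD4 conventional Ccr7 was called at -0.60 without replicate 2 (adjusted p = 0.0255). On both sides expanded cells were lower than single cells in every library for 4 genes in CD8 cells and all 5 in CD4 conventional cells. Rasgrp2 in CD8 cells was the exception, at 127.8 to 207.5 against 147.8 to 213.8 CPM with CD62L 4 or more. On that side CD8 Ccr7 was at 36.21 to 219.1 CPM in expanded clones against 329.5 to 337.1 CPM in single cells. In CD8 cells the median CD62L count on that side was 6 to 11 in expanded clones and 23 to 42 in single cells. In CD4 conventional cells it was 5 to 11.5 against 20 to 37. There, and in the effect differences, clone class and amount of CD62L cannot be told apart.

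Clones with cells on both sides allowed the comparison among cells of 1 receptor, in 71 CD8 and 186 CD4 conventional clones. With the UMIs of these clones pooled in each library, the log2 ratio of CD62L 4 or more over 0-3 in CD8 cells was positive in 4 of 4 libraries for Klf3 (0.707 ± 0.424, SD, n = 4), Ccr7 (0.639 ± 0.292) and Rasgrp2 (0.528 ± 0.205), and in 3 of 4 for S1pr1 (0.88 ± 0.779) and Klf2 (0.406 ± 0.827). For CD4 conventional cells it was positive in 4 of 4 for Rasgrp2 (0.871 ± 0.388) and Klf2 (0.593 ± 0.522), in 3 of 4 for Ccr7 and S1pr1 and in 2 of 4 for Klf3. The exact two-sided permutation p of the ratios positive in 4 libraries was 0.13, the smallest that 4 libraries allow. As the ratio of mean CPM with each clone at equal weight, Ccr7 in CD4 conventional cells was positive in 4 of 4 libraries (0.537 ± 0.307), and Klf2 was at -0.0398 ± 0.736 in CD8 and -0.111 ± 0.203 in CD4 conventional cells. By this measure Klf3 turned negative in CD8 cells (-0.131 ± 0.725) and was at -0.315 ± 0.981 in CD4 conventional cells. S1pr1 was at 0.445 ± 1.02 and -0.0895 ± 0.673, Rasgrp2 at 0.393 ± 0.364 and 0.266 ± 0.611, and CD8 Ccr7 at 0.0959 ± 1.03. As the mean of each clone's own log2 ratio, Klf3 in CD8 cells (0.18 to 0.39) and Ccr7 (0.026 to 0.63) and Rasgrp2 (0.27 to 1.35) in CD4 conventional cells were positive in 4 of 4. This mean adds a small count to each side, which raises the ratio where the CD62L 4 or more side has fewer UMIs in all. In CD8 replicate 4 Klf3 was at 0.21 with mean levels of 142.6 against 279.8 CPM, so these signs carry no weight.

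Genes that act before and beside the 5 were taken from lists, some of which hold members themselves (S1pr1 in egress, Ccr7 in entry, Rasgrp2 in the Rap1 list, Klf2 and Klf3 in the KLF family). The lists too were chosen with earlier results of these data known, so their counts are descriptions. Of the genes upstream of Klf2 in T cells or endothelium (the forkhead factors Foxo1, Foxo3 and Foxp1 and the kinases and factor of the ERK5 path, Map3k3, Map2k5, Mapk7 and Mef2d), 5 of 7 were called higher in CD62L 20 or more in both CD8 and CD4 conventional cells and none lower. The list's median log2 fold change was 0.688 in CD8 cells and 0.579 in CD4 conventional cells, beside 0.0141 and 0.0152 over all genes tested. In Treg 1 of 6 was called, Foxp1. Of all tested genes 33.9% were called in either direction in CD8, 45% in CD4 conventional and 5.47% in Treg cells. Foxp1, a factor that keeps naive T cells quiescent, had 368 ± 22.5 CPM in CD62L 20 or more CD8 cells against 145 ± 64.5 CPM in CD62L 0-1 (1.58 ± 0.23, adjusted p = 0.00408 by edgeR), and Foxo1 was at 0.69 ± 0.12. In expanded over single cells at CD62L 0-1, 5 of the upstream genes were called lower in both populations, with Foxp1 at -2.10 in CD8 and -1.10 in CD4 conventional cells. There 24.6% and 24.1% of all tested genes were called in either direction.

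The genes of egress and entry did not all move with S1pr1 and Ccr7. In CD8 cells the sphingosine 1-phosphate receptor S1pr4 (0.59) was higher in CD62L 20 or more, the signalling subunit Gnai2 (-0.40) and the receptor damper Rgs1 (-1.87) were lower, and Cd69, whose protein pulls S1PR1 off the surface, was higher (0.69). In all 3 of 9 tested egress genes were called higher and 2 lower there, against 2 and 3 of 10 in CD4 conventional cells and 1 and 0 of 8 in Treg, where S1pr1 was the one. For these and the entry genes, the shares of all tested genes called were 33.9%, 45% and 5.47% in CD8, CD4 conventional and Treg cells. Of 8 entry genes, Ccr7, Itgb7 (0.49), Selplg (0.68) and Gpr183 (0.72) were called higher and the integrin chains Itgal (-0.35), Itgb2 (-0.39) and Itga4 (-0.89) lower in CD8 cells. CD4 conventional cells had 3 higher and 3 lower, and the same integrin chains fell (Itgal -0.83, Itgb2 -0.37, Itga4 -0.74). In Treg Ccr7 had the lowest p of the 8 entry genes and was not called (unadjusted p = 0.00906, adjusted p = 0.111 by edgeR).

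Of 10 genes of Rap1 and integrin activation, 4 were called higher and 2 lower in CD8 cells, 5 and 2 in CD4 conventional cells and 1 and 0 in Treg. Beside Rasgrp2 itself, Rap1b (0.39 in CD8 and 0.51 in CD4 conventional cells), its effector Apbb1ip (0.39 and 0.42) and the kinase Stk4 (0.53 and 0.52) were higher in CD62L 20 or more, and Rap1a (-0.49 and -0.74) was lower. In the KLF family 4 of 8 were called higher and 1 lower in CD8, 5 and 2 in CD4 conventional cells and 3 and 0 of 6 in Treg. Beside the Rap1 and KLF counts, 33.9%, 45% and 5.47% of all tested genes were called in these populations. Klf13 (0.80 and 0.66) and Klf7 (0.62 and 0.88) rose with Klf2 and Klf3 in CD8 and CD4 conventional cells, and Klf10, induced by TGF-β, fell (-0.95 and -1.32). Of 6 genes of the chemotaxis machinery 2 were called higher in CD8 cells, a share close to the background of 33.9%, and 3 higher and 1 lower in CD4 conventional cells. Arhgap45 was higher in both (0.78 in CD8 cells and 0.49 in CD4 conventional cells), and Rac2, a GTPase of the actin cytoskeleton, was the one lower (-0.32).

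Genes of tissue retention ran the other way. In CD8 cells 5 of 7 were called lower in CD62L 20 or more and only Cd69 higher (median -1.87), with Prdm1 at -3.11 and the chemokine Xcl1 at -3.62. CD4 conventional cells had 5 of 6 lower, with the chemokine receptor Cxcr6 at -3.41, and in Treg 2 of 5. Survival genes of recirculating cells were called higher in 6 of 6, 5 of 6 and 5 of 6 in CD8, CD4 conventional and Treg cells, with Lef1 at 2.03, 2.26 and 1.78 and the interleukin 6 receptor Il6ra at 2.55, 0.84 and 1.00. For retention and survival genes alike, the shares of all tested genes called were 33.9%, 45% and 5.47% in CD8, CD4 conventional and Treg cells. Within CD62L 0-1 the survival genes were lower in expanded clones in 5 of 6 in CD8 and in CD4 conventional cells, where Il7r was at -2.31 and -1.92. Of all tested genes 24.6% and 24.1% were called there.

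Over the 15 mean levels of population and CD62L class, the genes most like each member were found by Pearson's r of log2(CPM + 1) among 6507 genes, as a description, since the points share libraries and depth. Foxp1 (0.987) was nearest to Klf2, Dgka (0.984), a kinase that damps T cell receptor signals, and Arhgap45 (0.98) to S1pr1, Rreb1 to Ccr7 (0.968) and to Klf3 (0.966), and Irgc1 (0.96) and Pik3r5 (0.955) to Rasgrp2. Among the members r ran from 0.643 between S1pr1 and Rasgrp2 to 0.958 between Ccr7 and Klf3.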

How the data were processed

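RNA, antibody and receptor libraries of 4 replicates were used. The authors deposited UMI counts per barcode for genes and for antibodies and a table of assembled receptor chains, made with Cell Ranger 4.0.0 per the file headers. The submitters' processing notes name mm10 and Seurat without a role, and the values carry no normalization. Libraries were prepared with a 5' kit, per the labels' protocols.

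Barcodes were kept with at least 500 UMIs, 300 genes, 1 UMI over Cd3d, Cd3e and Cd3g, at most 8% mitochondrial UMIs, at most 1 TRB chain and under 2 UMIs over a list of B cell markers that held Cd79a, Cd79b and Ms4a1. No doublet caller or clustering was run. UMIs were summed per population, class and library, and a comparison needed 3 libraries. Cells with 1 TRB and 1 or 2 TRA chains formed a clonotype when all their productive CDR3 nucleotide sequences matched. edgeR 4.0.16 (R 4.3.3) ran the quasi-likelihood test with its expression filter, TMM scaling and Benjamini-Hochberg adjustment over all genes tested, at 0.05. Library entered as a block, since both sides of a comparison came from the same library; deviations of same-library sums correlated at -0.0857 to 0.338, over 0.1 in 30 of 47. DESeq2 1.42.0, other filters and scalings, thinning and left-out libraries or cells were alternatives. SE is the log2 fold change over the square root of F. Levels are CPM of plain totals, and p-values for 4 libraries alone are exact two-sided permutation tests. The fits were tested on simulated data. Results of some listed genes are not reported here.

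The members and lists were chosen with earlier results of these data known. The named genes are the 5 members, the genes of the lists and, for each member, the 3 genes of highest Pearson r among genes averaging at least 20 CPM. UMI sums bound the precision, and intervals of a fit cover the spread between libraries.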

Additional observations from a re-analysis of the deposited data

Results flagged for a closer look

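Among 150 groups of 4 libraries, 7 had 1 library far from the other 3, where chance gives about 1 in 20. Replicate 2 held 3 of them: Klf2 at 490.3 CPM in CD8 cells with CD62L 2-3 (277.7 to 311.6 CPM in the other libraries), Klf2 at 599.1 CPM in Treg with CD62L 4-9 (161.5 to 220.9 CPM) and Rasgrp2 at 223.4 CPM in CD8 cells with CD62L 10-19 (146.7 to 156.2 CPM). Replicate 1 held S1pr1 at 56.28 CPM in expanded CD8 cells with CD62L 0-1 (40.5 to 42.46 CPM), Klf3 at 98.61 CPM in Treg with CD62L 2-3 (69.8 to 70.54 CPM) and Ccr7 at 399.2 CPM in single CD4 conventional cells with CD62L 4 or more (332.8 to 341.8 CPM). Replicate 3 had Rasgrp2 at 21.6 CPM in single Treg with CD62L 0-1 (40.16 to 43.15 CPM).

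The relation of Rasgrp2 to CD62L differed between CD8 and CD4 conventional cells by -0.68 on the log2 scale, with an adjusted p of 0.0169 by edgeR. It was called in 10 of 16 other settings, and was -0.16 without cycling cells (adjusted p = 0.65 by edgeR).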

How the results depend on the processing

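Of the members' values under alternatives, 1223 kept direction and call, 99 lost a call, 57 gained one and 34 turned sign without being called in either setting. Below, counts are genes called, in the order CD8, CD4 conventional, Treg where 3 stand together, and the causes of their changes were not tested.

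For CD62L 20 or more over 0-1 (3194, 4654 and 373 genes) DESeq2 called 1977, 2933 and 155 and thinning to 1000 UMIs 707, 1722 and 170. In CD8 cells 1386 were called without cycling cells and 1461 with 1 cell per clonotype, and in Treg 594 without a filter on low counts and 211 with a TRB chain required. Leaving out 1 replicate gave 2019 to 3295, 3737 to 4278 and 185 to 466.

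For CD8 over CD4 conventional cells at CD62L 0-1 (3608) DESeq2 called 2251, thinning 967, no cycling cells 1582 and 1 cell per clonotype 1450, and leaving out a replicate 2041 to 3650. At 20 or more (1403) DESeq2 called 660, thinning 474 and leaving out a replicate 906 to 1415. For Treg over CD4 conventional cells at 0-1 (2440) DESeq2 called 1326, thinning 614, no cycling cells 1232 and leaving out a replicate 1657 to 2266. At 20 or more (1354) DESeq2 called 820, thinning 212, no cycling cells 452, a TRB chain 589 and leaving out a replicate 709 to 1363. For the CD8 minus CD4 conventional effect (372) no replicate block called 231, thinning 109, 1 cell per clonotype 136 and leaving out a replicate 116 to 438. For the Treg minus CD4 conventional effect (354) no filter called 605, a TRB chain 138, no cycling cells 110, thinning 54, 1 cell per clonotype 172, CD62L classes of equal size within each library 206 and leaving out a replicate 114 to 277.

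For expanded over single cells (1957, 2272 and 1) DESeq2 called 1113, 887 and 3, thinning 411, 564 and 32, no cycling cells 708, 1293 and 68, 1 cell per clonotype 719, 1248 and 0, and leaving out a replicate 1361 to 1757, 1585 to 1880 and 1 to 70. In Treg no filter gave 69, no replicate block 0 and clones of at least 3 cells 10.

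Among cells of expanded CD8 clones (20) no filter called 74, no replicate block 0, thinning 6 and 1 cell per clonotype 3. Clones of at least 3 cells gave 7, CD62L 10 or more over 0-3 80 and leaving out a replicate 9 to 34. In CD4 conventional clones (14) they called 220, 1, 30, 6, 8, 231 and 0 to 79, DESeq2 23, kept B cell marker barcodes 243, no myeloid barcodes 35 and no cycling cells 73. For the CD8 effect in expanded minus single cells (4) no filter called 105, DESeq2 11, thinning 1, CD62L 10 or more 30, no myeloid barcodes 9 and leaving out a replicate 1 to 13. For CD4 conventional cells (189) no replicate block called 70, no cycling cells 68, thinning 20, clones of at least 3 cells 459, CD62L 10 or more 25 and leaving out a replicate 74 to 259. DESeq2 size factors and a CD11a count of at least 20 kept all counts within 1.5 times.

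The values that turned sign were, at CD62L 0-1, CD8 over CD4 conventional Ccr7 at 0.069 without cycling cells and 0.062 with 1 cell per clonotype, and at 20 or more Klf3 at 0.0014 and, thinned, 0.046. The CD8 minus CD4 conventional effect of Ccr7 was -0.17 without cycling cells and -0.21 with 1 cell per clonotype. The Treg minus CD4 conventional effect of S1pr1 was 0.32 without cycling cells and 0.49 thinned, and that of Ccr7 0.66 without cycling cells, 1.08 thinned, 0.035 with 1 cell per clonotype and -0.60 to 0.072 with a replicate left out. Expanded over single Rasgrp2 was 0.13 in CD8 cells with 1 cell per clonotype and in Treg -0.028 by DESeq2, -0.29 with 1 cell per clonotype, -0.38 from 3 cells and -0.23 to 0.097 with a replicate left out. The CD8 effect in expanded minus single cells was for Klf2 -0.0077 without a filter, -0.33 with 1 cell per clonotype and -0.22 to 0.26 with a replicate left out, and for Rasgrp2 -0.064 to 0.29 with a replicate left out. In CD4 conventional cells from 3 cells per clone, Klf3 among cells of expanded clones was -0.21. Their effect in expanded minus single cells was for S1pr1 -0.25 to 0.0028 with a replicate left out, 0.025 without cycling cells, 0.040 thinned and 0.58 with CD62L 10 or more, for Klf3 -0.00018 with B cell barcodes kept and -0.34 from 3 cells, for Klf2 -0.22 to 0.21 with a replicate left out, -0.37 with 1 cell per clonotype and -0.23 from 3 cells, and for Rasgrp2 -0.19 without cycling cells, -0.094 thinned and -0.12 with 1 cell per clonotype.

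The replicate block is part of every fit, since both sides share a library. Without it no member's call among cells of expanded clones was kept, as given beside them. Small classes limit Treg, where the fits on all cells used rested on sums of as few as 15 cells.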
